A study of Chromochloris zofingiensis with 6 samples.

Results

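The transcripts of 5 genes of carotenoid and ketocarotenoid synthesis were followed in the green microalga Chromochloris zofingiensis (strain ATCC 30412), kept with or without the antibiotic levofloxacin. The genes were chosen by ID from the species' gene models, as those selected for phytoene synthase (Cz05g32220), phytoene desaturase (Cz02g32280), β-carotene hydroxylase (Cz12g16080) and the β-carotene ketolases BKT1 (Cz13g13100) and BKT2 (Cz04g11250). They are 5 of 15364 gene IDs in the count table and 5 of the 14236 IDs with enough reads to test. The deposited tables hold IDs without names or sequences, so the enzyme names are those of the selection and were not checked against a sequence.

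One group of 3 samples was grown with 10 mg/L levofloxacin, a fluoroquinolone that blocks the type II topoisomerases of bacteria, and the other group of 3 without it. The cells of all 6 samples, of this strain, grew in darkness on 30 g/L glucose at 25 °C with shaking at 150 rpm. On day 15, a 100 mL volume of culture gave the RNA of each sample. Whether replicates 1 to 3 of a group were separate cultures is not stated, so p-values here reflect only the variation among these libraries, part of which may be technical. Because each library pools the cells of a culture, fewer cells that make a transcript and less of it per cell cannot be told apart.

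Carotenoids are made in the plastid from geranylgeranyl diphosphate. Phytoene synthase joins a pair of these molecules into phytoene, the first committed step, and phytoene desaturase starts the series of desaturations that leads to coloured lycopene. After ring closure to β-carotene, the hydroxylase adds hydroxyl groups and yields zeaxanthin, while the ketolases add keto groups and yield canthaxanthin; both reactions together give astaxanthin. C. zofingiensis is known for making astaxanthin in the dark on glucose as well as in strong light, and mutants of this alga have tied its ketocarotenoids to BKT1.

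Between 28482776 and 36223195 reads were assigned to genes in each library. The control libraries differed from each other more than the levofloxacin libraries did, with a biological coefficient of variation of 10.9% with levofloxacin and 24.9% among controls. On the first principal component of all tested IDs, which held 68.0% of the variance, the levofloxacin libraries lay between 33.8 and 41.5. Control replicate 2, at -9.03, lay nearest to them, and controls 3 and 1 lay at -36.9 and -66.5.

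Of the 5 genes, 0 passed the test of levofloxacin against control (adjusted p under 0.05, from edgeR's quasi-likelihood fit with the Benjamini-Hochberg method over the whole table). Of all tested IDs 22.1% passed in either direction, 10.1% higher and 12.1% lower. That share moved with single libraries: leaving out levofloxacin replicate 1, 2 or 3 gave 1.73, 6.04 and 1.67%, and leaving out control replicate 1, 2 or 3 gave 25.3, 30.7 and 8.18%. In 1 of the 5 genes, BKT1, the unadjusted p was under 0.05, against 39% of all tested IDs. The log2 fold change was positive in 4 genes and negative in 1, with a median of 0.16 over the 5 genes and 0.00097 over all tested IDs. The median size of a log2 fold change, regardless of sign, was 0.16 over the 5 genes and 0.30 over all tested IDs. Both medians over the 5 genes are the value of BKT2, which had the largest SE of the 5 (0.42). BKT1 and phytoene synthase had the largest fold changes of the 5, and phytoene desaturase, the hydroxylase and BKT2 had fold changes smaller than their standard errors.

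**Figure D1:**
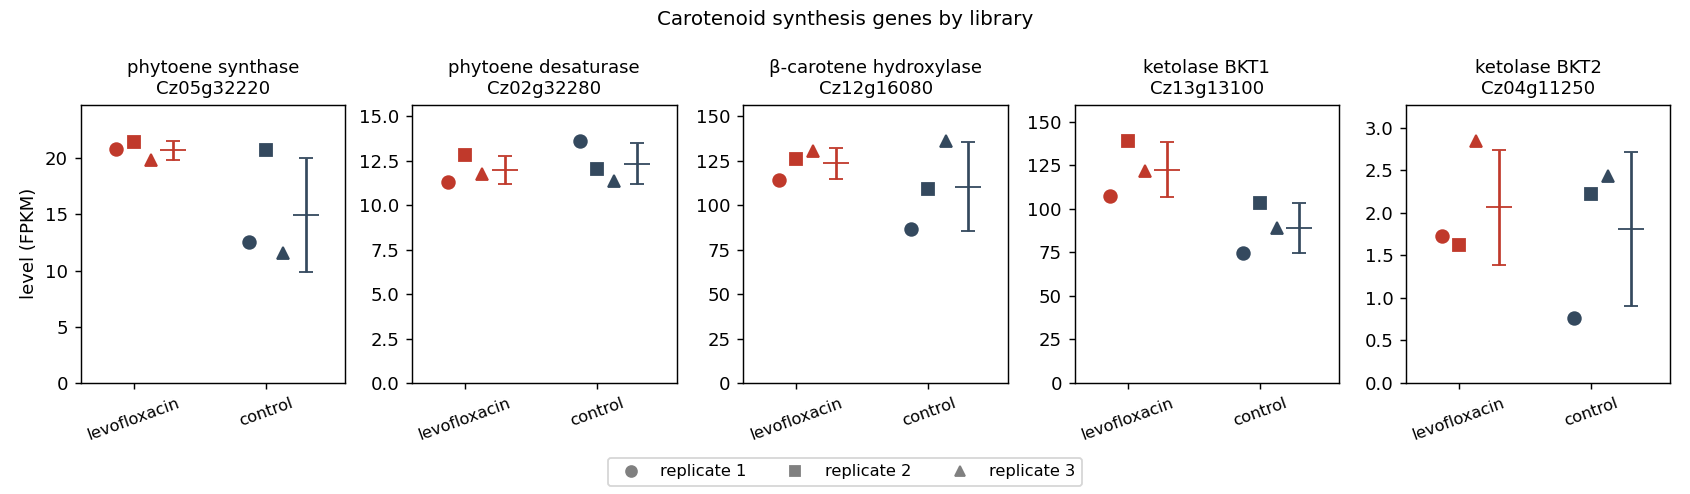
Level of each of the 5 genes in FPKM (fragments per kilobase of coding length and 1e6 assigned reads, vertical axes from 0, a scale per gene), for the 3 levofloxacin and the 3 control libraries; symbols give the replicate, and the horizontal mark with bars gives the mean and SD of each group. All 3 levofloxacin libraries lie above all controls for BKT1 only, and control replicate 2 lies among the levofloxacin libraries for phytoene synthase.

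The first committed step was read from Cz05g32220, the phytoene synthase ID. Its gene model has a coding length of 540 bases, or 180 codons, which is short for this enzyme as it is known from plants and other green algae. It had 320, 383 and 343 reads in levofloxacin replicates 1, 2 and 3, against 198, 406 and 214 reads in control replicates 1, 2 and 3. Per coding length and library total these reads were 20.8, 21.5 and 19.8 FPKM with levofloxacin and 12.5, 20.8 and 11.5 FPKM in the controls. The levofloxacin libraries were close to each other, while control replicate 2 was as high as they were and controls 1 and 3 were lower, so the groups overlapped.

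The phytoene synthase level averaged 20.7 ± 0.84 FPKM with levofloxacin and 14.9 ± 5.06 FPKM in controls (SD, n = 3 each). Its log2 fold change on the counts was 0.44 ± 0.21 (SE), a fold of 1.36 with a 95% interval of 0.97 to 1.89, and it did not pass (edgeR, unadjusted p = 0.067, adjusted p = 0.16). The result turned on control replicate 2: without that library the log2 fold change was 0.68 ± 0.16 (SE; edgeR, adjusted p = 0.019), in a fit that called 30.7% of all tested IDs. With sample weights in limma-voom it was 0.56 ± 0.18 (SE; adjusted p = 0.038), where 35.3% of all tested IDs were called. In the other left-out fits, 4 of which called 1.67 to 8.18% of all tested IDs, it did not pass, with log2 fold changes from 0.29 to 0.47.

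The spread among the controls of this gene was set beside its counting error. An exact Poisson 95% interval, which covers counting error only, ran from 18.8 to 22.9 FPKM in control replicate 2, from 10.8 to 14.4 FPKM in replicate 1 and from 10.0 to 13.2 FPKM in replicate 3. The interval of replicate 2 lay above the intervals of the other controls. The coefficient of variation of its CPM (counts per 1e6 assigned reads, scaled by TMM) was 5.17% with levofloxacin and 27.5% in controls. The median over all tested IDs was 8.35% with levofloxacin and 15.8% in controls, and 78.0% of IDs varied as little as phytoene synthase or less among the controls.

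Phytoene desaturase, Cz02g32280, did not separate the groups by its level in FPKM or in TMM-scaled CPM. Its coding length is 1677 bases. It had 11.3, 12.8 and 11.8 FPKM in levofloxacin replicates 1, 2 and 3, against 13.6, 12.0 and 11.3 FPKM in control replicates 1, 2 and 3. Control replicate 1 was the highest of the 6 libraries, and the other 5 spanned 11.3 to 12.8 FPKM with the groups mixed. In TMM-scaled CPM, the scale of the test, control replicate 1 stood further apart, at 25.0 CPM, where the other libraries spanned 18.4 to 21.5 CPM.

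Its mean was 12.0 ± 0.79 FPKM with levofloxacin and 12.3 ± 1.16 FPKM in controls (SD, n = 3 each). The log2 fold change of phytoene desaturase was -0.10 ± 0.15 (SE; edgeR, adjusted p = 0.65), with a 95% interval from a fold of 0.74 to 1.18. Without control replicate 1 its sign turned, to 0.04 ± 0.11 (SE; adjusted p = 0.81).

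The levels of the first enzymes of the pathway relative to each other were compared within each library, where library scaling cancels. The ratio of phytoene synthase FPKM to phytoene desaturase FPKM was 1.84, 1.68 and 1.69 in levofloxacin replicates 1, 2 and 3, against 0.919, 1.72 and 1.02 in control replicates 1, 2 and 3. Control replicate 2 had the ratio of the levofloxacin libraries, and the other controls had nearly equal levels of both genes. The mean ratio was 1.73 ± 0.09 with levofloxacin and 1.22 ± 0.44 in controls (SD, n = 3 each), a difference within reach of the control spread (exact permutation test on the log2 ratio, two-sided, p = 0.30, adjusted p = 0.40 over 4 comparisons, where 3 against 3 cannot go below 0.10).

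β-Carotene hydroxylase, Cz12g16080, with a coding length of 732 bases, was among the more abundant transcripts of these cells. It had 114, 126 and 130 FPKM in levofloxacin replicates 1, 2 and 3, against 86.4, 109 and 136 FPKM in control replicates 1, 2 and 3. The controls spread on both sides of the levofloxacin libraries, with replicate 1 the lowest and replicate 3 the highest of all 6 libraries.

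The hydroxylase averaged 123 ± 8.60 FPKM with levofloxacin and 110 ± 24.9 FPKM in controls (SD, n = 3 each). Its log2 fold change of 0.12 ± 0.16 (SE) did not pass (edgeR, adjusted p = 0.60), with a 95% interval from a fold of 0.85 to 1.39. With sample weights in limma-voom the sign turned, to -0.031 ± 0.13 (SE; adjusted p = 0.88). The hydroxylase had 1853, 2884 and 3419 reads in control replicates 1, 2 and 3, with a coefficient of variation from counting alone of 1.71 to 2.32% per library.

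Of the ketolases, BKT1 (Cz13g13100, coding length 939 bases) carried nearly all of the reads. BKT1 had 107, 139 and 122 FPKM in levofloxacin replicates 1, 2 and 3, against 74.8, 103 and 89.1 FPKM in control replicates 1, 2 and 3. It was the only one of the 5 genes in which every levofloxacin library lay above every control, in FPKM as in TMM-scaled CPM. Among all tested IDs 22.6% did so in FPKM and 22.4% in CPM. The nearest libraries, levofloxacin replicate 1 and control replicate 2, lay at 107 and 103 FPKM, and their exact Poisson 95% intervals of 103 to 111 and 100.0 to 107 FPKM overlapped.

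BKT1 averaged 122 ± 15.9 FPKM with levofloxacin and 89.1 ± 14.3 FPKM in controls (SD, n = 3 each). Its log2 fold change was 0.42 ± 0.14 (SE), a fold of 1.34 with a 95% interval of 1.08 to 1.67, and it did not pass over the whole table (edgeR, unadjusted p = 0.014, adjusted p = 0.058). Of all tested IDs, 24.9% had a p as small or smaller, so its rank was not unusual in this comparison. BKT1 did pass in DESeq2 (adjusted p = 0.025), where 29.8% of all tested IDs were called, and without control replicate 2 (log2 fold change 0.49, edgeR, adjusted p = 0.044), where 30.7% were called. Without any other single library its adjusted p lay between 0.075 and 0.18 and its log2 fold change between 0.31 and 0.52, in fits that called 1.67 to 8.18% of all tested IDs, or 25.3% without control replicate 1. The coefficient of variation of BKT1 in CPM was 14.5% with levofloxacin and 8.76% in controls. On that scale BKT1, unlike phytoene synthase, varied more among the levofloxacin libraries. Relative to the mean, the order was reversed in FPKM. There the SD was 15.9 around a mean of 122 with levofloxacin and 14.3 around 89.1 in controls.

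The controls of BKT1 stood in the order of the first principal component, with replicate 1 lowest, replicate 3 next and replicate 2 nearest to the levofloxacin libraries. How many of all tested IDs shared this order was not counted, so it is not shown to be particular to BKT1. In log2 CPM they lay 0.55, 0.41 and 0.29 below the levofloxacin mean for replicates 1, 3 and 2. For phytoene synthase the distances below the levofloxacin mean were 0.57, 0.80 and 0.05 for control replicates 1, 3 and 2. Control replicate 2 was the control nearest to the levofloxacin mean in phytoene synthase, BKT1 and BKT2, and in 50% of all tested IDs.

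**Figure D2:**
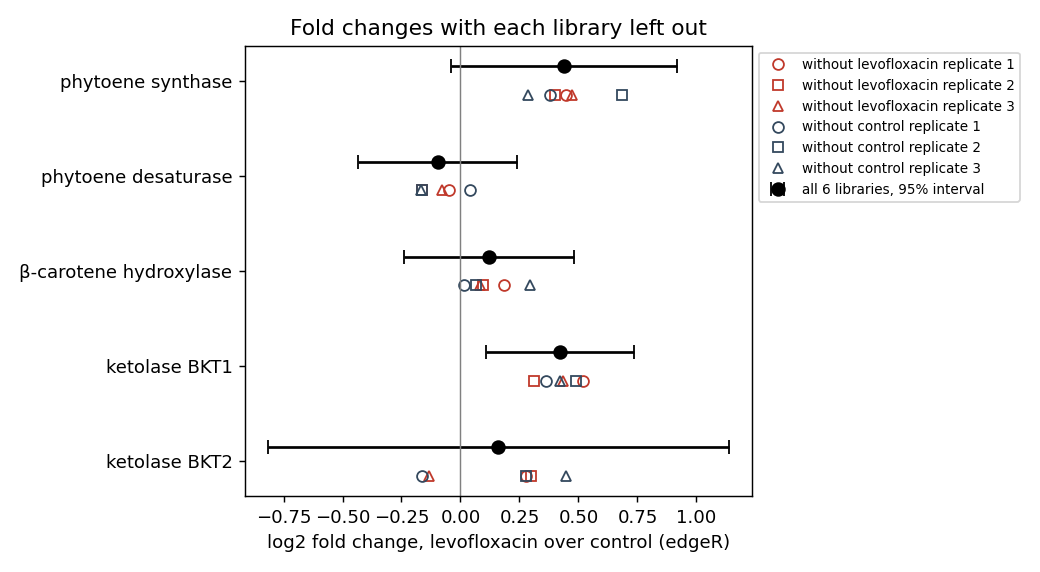
Log2 fold change of levofloxacin over control (horizontal axis) for each gene, from all 6 libraries with its 95% interval (filled points) and with each library left out in turn (open symbols, coloured by the group of the library left out). BKT1 and phytoene synthase lie to the right of 0 in every fit, phytoene synthase moves most without control replicate 2, and phytoene desaturase and BKT2 cross 0.

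BKT2, Cz04g11250, was the lowest of the 5 genes. Its coding length of 933 bases is close to that of BKT1, yet it had 46, 50 and 85 reads in levofloxacin replicates 1, 2 and 3, against 21, 75 and 78 reads in control replicates 1, 2 and 3. These were 1.73, 1.62 and 2.84 FPKM with levofloxacin and 0.77, 2.22 and 2.43 FPKM in the controls. The groups overlapped, with control replicate 1 the lowest and levofloxacin replicate 3 the highest.

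BKT2 averaged 2.07 ± 0.68 FPKM with levofloxacin and 1.81 ± 0.91 FPKM in controls (SD, n = 3 each). Its log2 fold change of 0.16 ± 0.42 (SE) did not pass (edgeR, adjusted p = 0.80), and its 95% interval ran from a fold of 0.57 to 2.20, the widest of the 5 genes. The sign was not stable: it turned without control replicate 1 (-0.16), without levofloxacin replicate 3 (-0.13) and with sample weights in limma-voom (-0.025). Counting error alone gave a coefficient of variation of 10.8% to 21.8% per library for BKT2, against 1.52% to 2.20% for BKT1.

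Within the ketolase pair, BKT1 made up 98.4, 98.8 and 97.7% of the summed FPKM in levofloxacin replicates 1, 2 and 3, against 99.0, 97.9 and 97.3% in control replicates 1, 2 and 3. The libraries of the groups were mixed. The mean share was 98.3 ± 0.57% with levofloxacin and 98.1 ± 0.84% in controls (SD, n = 3 each). The exact permutation test gave p = 0.80 (two-sided, adjusted p = 0.80 over 4 comparisons), where 3 against 3 cannot go below 0.10. Expressed as a ratio of FPKM, BKT1 stood 42.8-fold to 85.5-fold above BKT2 with levofloxacin and 36.6-fold to 97.4-fold above it in controls. If near-identical stretches of the pair shared reads, the counts of either gene could have been affected, which was not tested.

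Ketolation and hydroxylation act on the same β-carotene rings, so the ketolases were set against the hydroxylase within each library. The summed FPKM of BKT1 and BKT2 was 0.955, 1.12 and 0.954 times that of the hydroxylase in levofloxacin replicates 1, 2 and 3, against 0.875, 0.971 and 0.673 times in control replicates 1, 2 and 3. The groups overlapped at control replicate 2, and control replicate 3, with the highest hydroxylase level, had the lowest ratio. The mean ratio was 1.01 ± 0.09 with levofloxacin and 0.84 ± 0.15 in controls (SD, n = 3 each). The exact permutation test on the log2 ratio gave p = 0.30 (two-sided, adjusted p = 0.40 over 4 comparisons). With 3 against 3 it cannot go below 0.10, so it could not have passed.

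**Figure D3:**
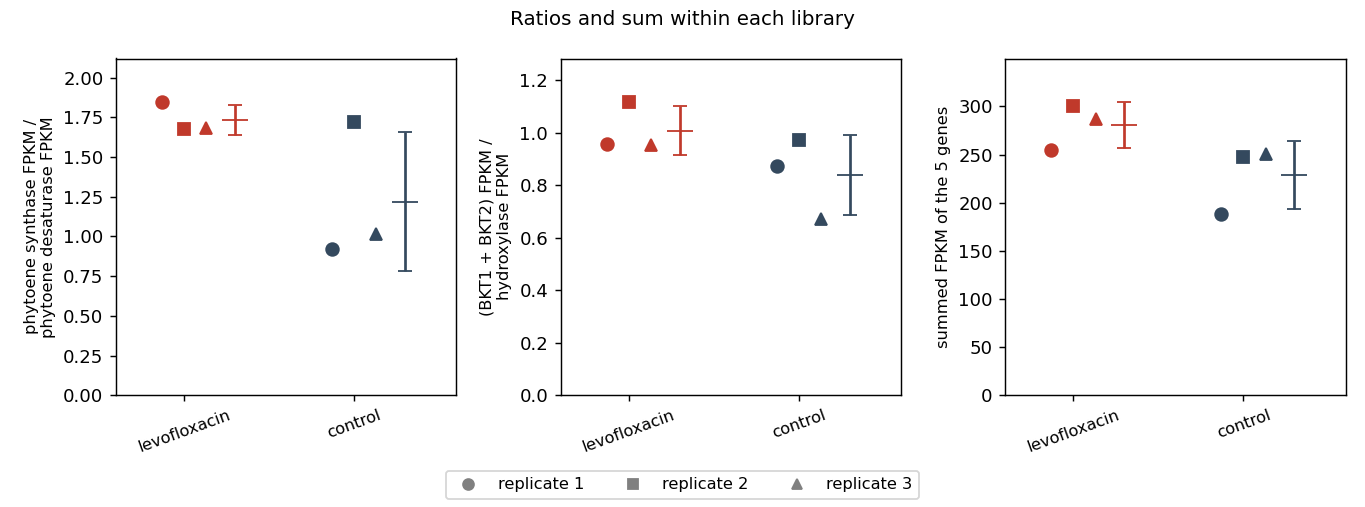
Ratio of phytoene synthase to phytoene desaturase FPKM (left), ratio of both ketolases to the hydroxylase in FPKM (middle) and summed FPKM of the 5 genes (right) in each library, with the mean and SD of each group; vertical axes start at 0. Control replicate 2 lies among the levofloxacin libraries in the left and middle plots, and in the sum the 3 levofloxacin libraries lie above the controls on this scale of library totals but not after TMM scaling, where levofloxacin replicate 1 (247) lies below control replicate 3 (253).

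The 5 genes fell into 3 tiers of level per coding length. The hydroxylase and BKT1 formed the upper tier, phytoene synthase and phytoene desaturase the middle one and BKT2 the lowest. Averaged over the 6 libraries, the FPKM of the hydroxylase was 6.31 times that of the median ID and that of BKT1 5.71 times, which placed them at percentiles 90.3 and 89.3 of all IDs. Phytoene synthase stood at 0.961 times and phytoene desaturase at 0.655 times the median ID, and BKT2 at 0.104 times. The transcripts of the last steps of astaxanthin synthesis were thus more abundant per length than those of the first steps in each of the 6 libraries, except for BKT2.

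Neighbours within a tier were not separated in every library. The hydroxylase was above BKT1 in 5 of 6 libraries and below it in levofloxacin replicate 2, and in the levofloxacin group their means of 123 and 122 FPKM differed by less than the SD of either. Phytoene synthase was above phytoene desaturase in 5 of 6 libraries and below it in control replicate 1. With levofloxacin the lowest phytoene synthase level, 19.8 FPKM, lay above the highest phytoene desaturase level, 12.8 FPKM, whereas in controls their ranges overlapped.

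The summed level of the 5 genes followed its upper tier. It was 255, 301 and 286 FPKM in levofloxacin replicates 1, 2 and 3, against 188, 247 and 250.4 FPKM in control replicates 1, 2 and 3. On this scale of library totals every levofloxacin library was above every control, though replicate 1 with levofloxacin and control replicate 3 were close. Divided by the TMM factors that the test used, a scaling added after the data had been seen, the sum was 247, 301 and 281 FPKM with levofloxacin and 206, 234 and 253 FPKM in controls, so that levofloxacin replicate 1 lay below control replicate 3 and the groups overlapped. The hydroxylase made up 41.9 to 45.5% of the sum with levofloxacin and 44.0 to 54.3% in controls. BKT1 made up 42.0 to 46.2% with levofloxacin and 35.6 to 41.8% in controls. Its shares in the groups did not overlap but nearly met, at 42.0 and 41.8%. The shares of phytoene desaturase did not overlap either, in the other direction. They were 4.11 to 4.43% with levofloxacin and 4.53 to 7.24% in controls. No background over other IDs was formed for shares. In FPKM itself, 22.6% of all tested IDs had every levofloxacin library above every control, as BKT1 did. The sum holds BKT1, so its order over libraries is in part that of BKT1.

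**Figure D4:**
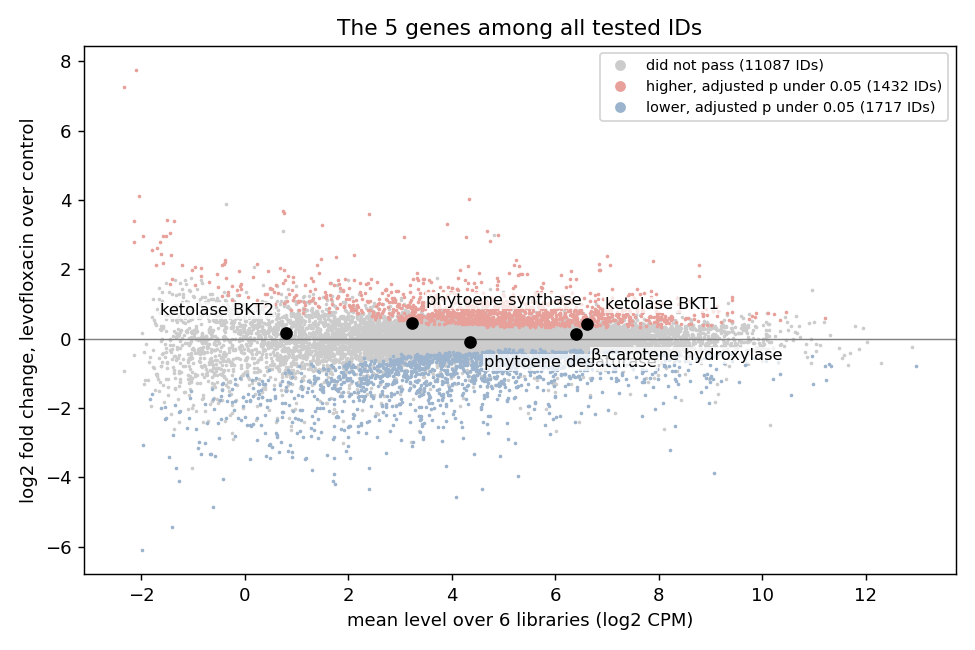
Log2 fold change of levofloxacin over control (vertical axis) against the mean level in log2 CPM (horizontal axis) for all 14236 tested IDs, coloured by the edgeR call, with the 5 genes as black points. All 5 lie among the IDs that did not pass, with BKT1 and phytoene synthase the highest of the 5.

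Control replicate 1 was the lowest of the 6 libraries in 3 of the 5 genes, the hydroxylase, BKT1 and BKT2, where it was the lowest in 41.9% of all tested IDs. In phytoene desaturase it was the highest. The 5 genes therefore did not move as a unit among the controls: control replicate 2 was the highest control in phytoene synthase and BKT1, and control replicate 3 was the highest in the hydroxylase. In BKT2 controls 2 and 3, at 75 and 78 reads, were not separated beyond counting error.

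The profiles of the 5 genes over the 6 libraries were compared by the root mean square distance of their centred log2 CPM values, a description over 6 libraries that share 2 groups. Phytoene synthase and BKT1 were the closest pair of the 10, at a distance of 0.21, and 9.17% of the IDs that average 5 CPM or more were nearer to phytoene synthase than BKT1 was. The hydroxylase and BKT1 followed at 0.23, where 29.0% of these IDs were nearer to the hydroxylase than BKT1 was. BKT2 and phytoene desaturase were farthest apart at 0.67, where 94.5% were nearer to phytoene desaturase than BKT2 was. Outside the 5 genes, Cz02g30130 was nearest to phytoene synthase, at 0.05, and Cz10g14250 was nearest to BKT1, at 0.05. The files give no name for either. Neither ID passed the test (log2 fold changes of 0.49 ± 0.23 and 0.38 ± 0.13, SE; edgeR, adjusted p = 0.16 and 0.075). Within a distance of 0.1 there were 44 IDs around phytoene synthase, 100 around BKT1, 47 around the hydroxylase, 245 around phytoene desaturase and 0 around BKT2. These counts were not adjusted for counting error, which alone was 10.8% to 21.8% per library for BKT2. The median distance was 0.27 from phytoene desaturase and 0.57 from BKT2, whose nearest ID lay at 0.16. The counts therefore do not show how common each profile is.

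The 5 IDs carry the prefixes of 5 different chromosomes, 5, 2, 12, 13 and 4 in the order of the pathway, as the species' ID naming is read here. In ID order, the 3 tested IDs on either side of each gene give 30 neighbours in all, of which 3 rose, 1 fell and 26 did not pass, against 22.1% of IDs called in the whole table. Phytoene synthase, phytoene desaturase and BKT1 each had 1 neighbour that rose, BKT1 also had the 1 that fell, and the hydroxylase and BKT2 had 0 of either.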

How the data were processed

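The members and lists were chosen with earlier results of these data known. The authors deposited whole-number counts per gene ID and FPKM values; the submitters' processing notes name HISAT2 2.0.6 and HTSeq 0.6.1. Genome build, annotation and strandedness of counting were not given in the sources used here, so reads of genes that overlap, also on opposite strands, cannot be told apart. The deposited FPKM values equalled counts divided by a whole-number length and a library total; 99.8% of these lengths divide by 3, as coding lengths do. Counts were tested over all 6 libraries with edgeR 4.0.16 (R 4.3.3; filterByExpr, TMM, quasi-likelihood F test, Benjamini-Hochberg over 14236 IDs); 1128 IDs were left out by the filter. SEs come from the fold change and its F statistic, and intervals use the fit's t distribution. The code was tested on simulated data. Ratios used exact permutation tests over libraries (scipy 1.17.1). Alternatives were DESeq2 1.42.0, limma 3.58.1 (voom, sample weights, log2 FPKM with a pseudocount of 1 or 0.1), other scalings and filters, each library left out and a replicate block. All 5 genes are named; other IDs are named only as the nearest profile, found among IDs that average 5 CPM or more. A list of the other carotenoid genes was planned but not formed, since the files pair no IDs with names. Replicates of a group differed by 9.65 to 198 in chi-square per degree of freedom, so none was counted as a repeat.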

Additional observations from a re-analysis of the deposited data

How the results depend on the processing

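Of the 5 genes, phytoene synthase and BKT1 kept a positive log2 fold change under every alternative run. Phytoene synthase passed with sample weights in limma-voom (0.56), and leaving out each library gave 0.29 to 0.68. BKT1 passed in DESeq2 (0.42) and with the replicate number as a block (0.42, adjusted p = 0.047, where 20.1% of all IDs were called); leaving out each library gave 0.31 to 0.52. The block changed no other gene's call. Same-numbered libraries deviated together with correlations of 0.16, 0.05 and 0.04 across genes and the labels do not pair them, so the numbers were not taken as pairs. With sample weights in limma-voom the sign turned in the hydroxylase (-0.031) and in BKT2 (-0.025). Leaving out each library gave -0.17 to 0.042 in phytoene desaturase, 0.01 to 0.29 in the hydroxylase and -0.16 to 0.45 in BKT2. The difference in the BKT1 share of ketolase FPKM lay between -0.12 and 0.70 percentage points over the left-out libraries. All IDs called numbered 3149, and 5023 with sample weights, and 240 to 4402 with each library left out. The log2 differences of the ratios kept their sign. They lay at 0.39 to 0.84 for phytoene synthase over desaturase and at 0.13 to 0.39 for ketolases over hydroxylase. The sum kept its sign too (0.17 to 0.38, and 0.26 after TMM scaling). The exact tests cannot pass here, whether with 3 libraries against 3 or paired over replicate numbers with 3 pairs. The cause of these changes was not tested. With 3 libraries a group and, for BKT2, 355 reads in all, a gene that did not pass is not shown to be unchanged. The power to detect small changes was not computed.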
